A study of Caenorhabditis elegans with 2 samples.

Results

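The second tier of EGL-18 peaks comprised the regions that passed a loose threshold of reproducibility and missed the strict one. They were selected on measured values, namely the score that the authors gave each peak of a ranked list covering both replicates. Peaks with a score of at least 540 and under 830 were taken, overlapping ones were merged, and any that touched a peak of 830 or more was dropped. This left 1933 regions, from 2020 peaks among the 117695 of the ranked list. They were set against the 684 regions of the authors' thresholded list, which starts at a score of 830. A further 2872 regions with a score under 540 and an IDR of up to 0.1, called the tier below, show what lies on the other side.

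The material was whole *Caenorhabditis elegans* at the young adult stage, 63 h old, grown from L1 larvae that had been starved after bleaching. The strain, RW12252, carries st12252[egl-18::TY1::EGFP::3xFLAG], a CRISPR insertion at the *egl-18* gene itself on chromosome IV. Precipitation with an antibody against GFP was meant to recover DNA bound by the fusion protein, but binding at a given peak was not tested. The 2 biological replicates share this genotype, stage and antibody. There was no comparison group and no control list was used here, so that every comparison is between classes of regions, not between conditions. Whole worms mix all tissues, and a peak does not tell in which cells the protein was bound.

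EGL-18 belongs to the GATA family, whose members bind the sequence WGATAR (W is A or T, R is A or G) through zinc fingers. In the worm it is known for keeping the seam cells of the epidermis in their stem-like state downstream of Wnt signalling and for its part in vulval development. Peaks of worm transcription factors commonly gather at promoters, and genes transcribed by RNA polymerase III, such as those for tRNAs, are known to attract peaks in many ChIP-seq experiments. A score rests on the irreproducible discovery rate (IDR), a measure of whether a peak ranks alike in a pair of inputs. A score of 540 stands for an IDR of 0.05 and a score of 830 for 0.01.

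The following windows, which reach 75 bp to either side of the summit, show the member with the highest signal of several kinds on chromosomes II to V and X (for the GATA site, among promoters), so that a reader can see what such a region is made of. All are from the RefSeq sequence of WBcel235, which is the same assembly as ce11, on the plus strand and written 5′ to 3′. Capitals mark an annotated RNA gene in the first pair, and WGATAR or 1 of 4 CG-containing 6-mers in the others. The tRNA gene *R04E5.t6* (tRNA-Gly, minus strand) at chrX:8796761-8796911 lies in an intron of *R04E5.7*. The snRNA gene *R07E5.16* at chrIII:4414226-4414376 lies in an intron of *mpc-1*, whose product carries pyruvate into mitochondria. The promoter window at chrV:7728401-7728551 belongs to *Y97E10C.1*. The window with a GATA site, at chrIII:3249134-3249284, lies upstream of *nduf-9*, which encodes a subunit of mitochondrial complex I, and near *mir-4936*. The exon window at chrX:3112925-3113075 lies in *gpd-3*, which encodes a glycolytic enzyme, and holds neither motif. The last, at chrV:16708647-16708797, is intergenic and is the strongest member of all.
R04E5.t6: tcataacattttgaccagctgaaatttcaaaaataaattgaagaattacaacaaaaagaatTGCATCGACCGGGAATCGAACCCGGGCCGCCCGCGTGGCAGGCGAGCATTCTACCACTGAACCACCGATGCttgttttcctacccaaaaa
R07E5.16: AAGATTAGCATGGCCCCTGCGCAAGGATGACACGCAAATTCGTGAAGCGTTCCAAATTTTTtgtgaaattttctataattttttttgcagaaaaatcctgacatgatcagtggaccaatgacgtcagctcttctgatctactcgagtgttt
Y97E10C.1: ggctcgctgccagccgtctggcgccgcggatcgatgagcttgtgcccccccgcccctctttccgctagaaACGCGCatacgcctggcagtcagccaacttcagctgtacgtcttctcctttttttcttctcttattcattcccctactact
nduf-9: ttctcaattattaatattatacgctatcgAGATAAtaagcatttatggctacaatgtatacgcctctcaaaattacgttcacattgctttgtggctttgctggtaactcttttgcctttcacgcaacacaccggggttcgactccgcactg
gpd-3: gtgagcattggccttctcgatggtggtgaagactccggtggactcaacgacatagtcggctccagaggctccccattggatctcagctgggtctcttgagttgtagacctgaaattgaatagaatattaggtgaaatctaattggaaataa
intergenic: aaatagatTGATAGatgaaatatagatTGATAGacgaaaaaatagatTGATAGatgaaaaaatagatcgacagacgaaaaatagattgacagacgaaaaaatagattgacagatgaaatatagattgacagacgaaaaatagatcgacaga
The tRNA window holds the whole gene near its middle, and the snRNA window holds the end of its gene. The intergenic window is a tandem repeat in which TGATAG, a form of WGATAR, occurs 3 times.

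The values that chose the members are given as a description. Peak signal, which is the peak height from the authors' caller on a scale that is not stated, had a median of 59.6 (7.52 to 133) in the second tier and of 82.0 (21.2 to 544) in the thresholded list. The ranges overlapped little at the middle. Only 13 members lay above the thresholded median, and 23 thresholded regions lay below the median of the second tier. The median −log10 q-value was 0.174 in second-tier regions and 0.782 in thresholded regions, with 0.0682 in the tier below. Members covered 551214 bp, against 187049 bp in the thresholded list, and 85 of them joined 2 peaks. The regions given here for each side of a bound are the 5 nearest to it in score and, among equal scores, of highest signal. Just inside the upper bound, with scores 1 or 2 below 830, stood regions in the promoters of *vha-2*, which encodes a subunit of the vacuolar proton pump, *T05D4.2* and *clec-111*, in an exon of *F37F2.2* and near *haf-7*. Their signals of 67.7 to 77.2 lay within the range of 62.4 to 83.3 found in the peaks just outside, with scores of 830 and 831, at *unc-115*, *epg-8*, *nrde-2*, *atrn-1* and *pat-12*. At the lower bound 15 peaks had a score of 540 and as many a score 1 point lower. The 5 members of highest signal at 540 had signals of 54.4 to 58.2, and the 5 peaks of highest signal 1 point lower had 56.5 to 62.1. The members there lay in exons of *ketn-1* and *tut-2*, in an intron of *C54G6.3*, near *mam-1* and upstream of *clec-12*. The peaks outside lay in exons of *srbc-63* and *Y18D10A.23*, in an intron of *plst-1*, upstream of *D2030.7* and near *F35G2.1*.

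Coding exons took a far larger part in the second tier, and promoters a smaller one, than in the thresholded list. Exons of protein-coding genes held 531 of 1933 second-tier summits (27.5%, 95% interval 25.5 to 29.5) and 74 of 684 thresholded summits (10.8%, 8.59 to 13.4). The odds ratio was 3.12 (2.40 to 4.11, two-sided Fisher's exact test, adjusted p = 4.06e-20). Here and below p-values are adjusted by the Benjamini-Hochberg method over 13 shares, and intervals are exact and cover only the number of regions. Promoters, which here reach from 1000 bp before the start of a protein-coding transcript to 200 bp past it, held 30.2% (28.2 to 32.3) of second-tier summits and 43.9% (40.1 to 47.7) of thresholded ones (odds ratio 0.554, 0.461 to 0.666, Fisher's exact test, adjusted p = 6.07e-10). Introns held 20.4% of second-tier and 16.5% of thresholded summits (odds ratio 1.30 by Fisher's exact test, adjusted p = 0.0333). Intergenic sequence held 17.9% and 18.7% in the same order, a difference that did not pass (odds ratio 0.947, 0.753 to 1.20, by Fisher's exact test, adjusted p = 0.644). Summits near non-coding RNA genes and outside the other classes made up 3.98% of the second tier and 10.1% of the thresholded list (odds ratio 0.370 by Fisher's exact test, adjusted p = 3.74e-08).

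These tests treat regions as units, although neighbouring regions and regions at gene copies are not independent, and they say nothing of the spread between worms. The call for introns ended with unmerged peaks (Fisher's exact test, adjusted p = 0.0552) and against the conservative list (adjusted p = 0.251), and in the lists of replicate 1 alone the direction turned (17.9% of second-tier and 21.1% of thresholded regions, adjusted p = 0.581), while replicate 2 alone gave 16.8% and 16.2% (adjusted p = 0.907). The conservative list is not separate from the second tier, since 79 members overlapped it. When both tiers were taken from the lists of replicate 1 alone, promoters held 38.8% of 263 second-tier and 42.3% of 194 thresholded regions (Fisher's exact test, adjusted p = 0.590), whereas exons held 15.97% and 2.58% (adjusted p = 1.66e-05). In replicate 2 alone the exon shares were 15.9% of 208 second-tier and 4.39% of 228 thresholded regions (Fisher's exact test, adjusted p = 0.000501).

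**Figure D1:**
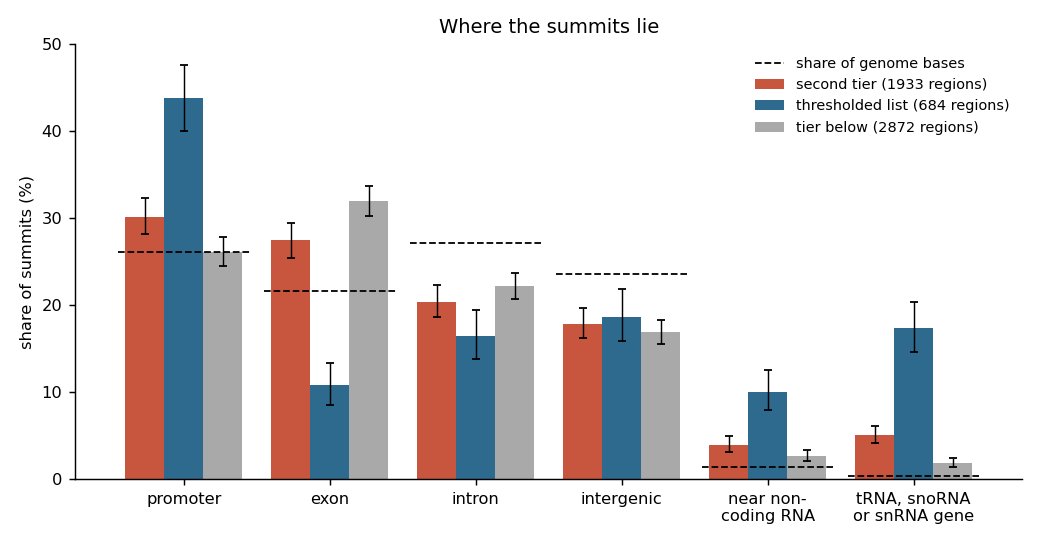
Share of summits (%) in each location class and at tRNA, snoRNA or snRNA genes, for the second tier, the thresholded list and the tier below; whiskers are exact 95% intervals and dashed lines give the share of genome bases of that class. The second tier stands at 30.2% in promoters and 27.5% in exons, the thresholded list at 43.9% and 10.8%.

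Set beside the genome, where promoter windows make up 26.1% of bases, exons 21.6%, introns 27.2% and intergenic sequence 23.7%, second-tier summits were above the share of bases in promoters and exons and below it in introns and intergenic sequence. The tier below went further in the same sense for exons. It held 31.96% of summits in exons (second tier against tier below, odds ratio 0.806, 0.708 to 0.917, Fisher's exact test, adjusted p = 0.00223) and 26.2% in promoters (odds ratio 1.22, 1.07 to 1.39, adjusted p = 0.00467). Among second-tier promoter regions the summit had a median position of -238.5 bp relative to the nearest start, against -249.5 bp in thresholded ones (negative values lie upstream), and 46.6% and 43.7% lay within 200 bp of it. Within the second tier, median signal differed little between classes, from 59.2 in exons to 61.6 near non-coding RNA genes.

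Of the 531 exon members, 495 (93.2%) had their summit in coding sequence, 30 in a 3′ UTR and 6 in a 5′ UTR. The exons that held them had a median length of 441 bp, against 474 bp for thresholded exon summits and 335 bp over all exon bases outside promoters. Summits lay at a median of 60.04% of the length of the gene, counted from its start. They fell in 521 protein-coding genes, 2.61% of the 19973 annotated, against 77 genes (0.386%) for the thresholded list. The strongest were in *R06C1.6* (signal 84.2), *gpd-3* (77.4) and *C27H6.9* (77.1). At *R06C1.6* the heights were 37.7 in replicate 1 and 42.5 in replicate 2, and at *gpd-3* they were 31.9 and 37.6. The gene *gpd-3* has a close relative in *gpd-2*. None of the 531 exon windows had a second exact copy in the genome, and near copies were not counted.

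Some genes held several members. In all, 80 protein-coding genes had 2 or more, counting promoter windows and exons, and 10 had 3 or more. The gene *sop-3*, for a subunit of the Mediator complex, had 4, of which 3 were in exons, and the chromodomain helicase gene *chd-7* had 3, all in exons. The others with 3 were *clec-111*, the chaperone gene *hsp-110*, *sea-2*, which acts in counting X chromosomes against autosomes, the phosphodiesterase gene *pde-2*, *rgs-7*, *hrpu-1*, the epidermal junction gene *ajm-1* and the kinase gene *madd-3*. These genes were named after their values were seen. Of all members, 8.48% lay within 1000 bp of another member, and 7.60% of thresholded regions lay as close to another of their list.

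Genes for tRNAs, snoRNAs and snRNAs were less common in the second tier than in the thresholded list and more common than in the tier below. Such a gene stood no more than 150 bp from the summit in 98 second-tier regions (5.07%, 4.13 to 6.14) and in 119 thresholded regions (17.4%, 14.6 to 20.5), an odds ratio of 0.254 (0.189 to 0.340, Fisher's exact test, adjusted p = 3.42e-20). The tier below held 1.88% (odds ratio of the second tier 2.79, Fisher's exact test, adjusted p = 7.64e-09), and such surroundings make up 0.421% of the genome. By class, tRNA genes had 65 second-tier and 68 thresholded regions (odds ratio 0.315 by Fisher's exact test, adjusted p = 9.67e-10), snoRNA genes had 24 and 35 (0.233, adjusted p = 1.25e-07) and snRNA genes had 9 and 16 (0.195, adjusted p = 0.000103). In the lists of replicate 2 alone the difference did not pass, with 13.5% of second-tier and 19.3% of thresholded regions (Fisher's exact test, adjusted p = 0.263). In those of replicate 1 the shares were 10.6% and 25.3% (Fisher's exact test, adjusted p = 0.000301).

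The rule drops a member that overlaps a peak of 830 or more, so that it favours separate genes, and genes that stand in one list only are no finding. Of the 612 annotated tRNA genes, 70 (11.4%) lay at a second-tier region and 75 (12.3%) at a thresholded one, and 145 (23.7%) at either. The second tier likewise lay at 24 of 346 snoRNA genes and 9 of 129 snRNA genes. Introns held 31 of the 65 second-tier tRNA regions (47.7%) and 19 of the 68 thresholded ones (27.9%), and this difference was not tested. The X chromosome, which carries 276 of the 612 tRNA genes (45.1%), had 31 second-tier tRNA regions (47.7%) and 46 thresholded ones (67.6%), also not tested. By amino acid, tRNA-Lys had the most genes in the second tier, 8 of 46, and tRNA-Val had 7 of 31, whereas the thresholded list had 5 and 3 of these. As a share of its genes tRNA-Trp came first, with 3 of 12 in the second tier and 0 in the thresholded list. For tRNA-Ala the second tier had 2 of 34 genes and the thresholded list 9. These amino acids were named after their values were seen, the counts are small, and none of these differences was tested. The strongest tRNA regions were at *R04E5.t6* on X (signal 78.2, heights 37.7 and 34.5 in replicates 1 and 2), at *C43G2.t1* in the promoter window of the peptidase gene *try-3* (signal 77.5, heights 31.1 and 42.4) and at *F10C1.t1* (signal 76.1, heights 27.5 and 46.4). Heights differed by less than 2-fold between replicates in each of these. The strongest snoRNA regions were at *C16D9.11* in an intron of *rol-3* (75.2), *Y53F4B.48* (74.5) and *F12F6.11* (70.3). The strongest snRNA regions were at *R07E5.16* (64.3), *F07C6.5* (64.3) and *F08H9.10* (63.0).

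The annotated class of other non-coding RNA genes, which number 7764, had 179 second-tier regions (9.26%) and 133 thresholded ones (19.4%), a difference that was not tested. Some of the second-tier ones also lay at a tRNA, snoRNA or snRNA gene. Genes for 5S rRNA had 2, at *rrn-4.7* (V:17122950-17123225, signal 82.8, heights 52.0 and 37.7 in replicates 1 and 2) and *rrn-4.12* (signal 63.0, heights 24.4 and 51.3). These genes stand in near-identical copies. Neither summit window had a second exact copy in the genome, and near copies were not counted. MicroRNA genes had 2 thresholded regions (0.292% of that list) and 6 members (0.310% of the second tier). They include *lin-4* (II:5902007-5902282, signal 63.2), the small RNA that times the passage from the first larval stage, with heights of 38.4 and 25.4 in replicates 1 and 2. The other 5 lay at *mir-4936* (signal 83.0), *mir-2214* (71.9), *mir-8192* (71.7), *mir-81* (63.9) and the pair *mir-61* and *mir-250* (50.7). Genes for piRNAs, which number 15363, had 10 second-tier regions (0.517%) and 3 thresholded ones (0.439%). Pseudogenes had 62 second-tier regions (3.21%) and 10 thresholded ones (1.46%). Long intergenic RNA genes had 9 (0.466%) and 2 (0.292%), and antisense RNA genes 3 (0.155%) and 2 (0.292%). None of these differences was tested.

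**Figure D2:**
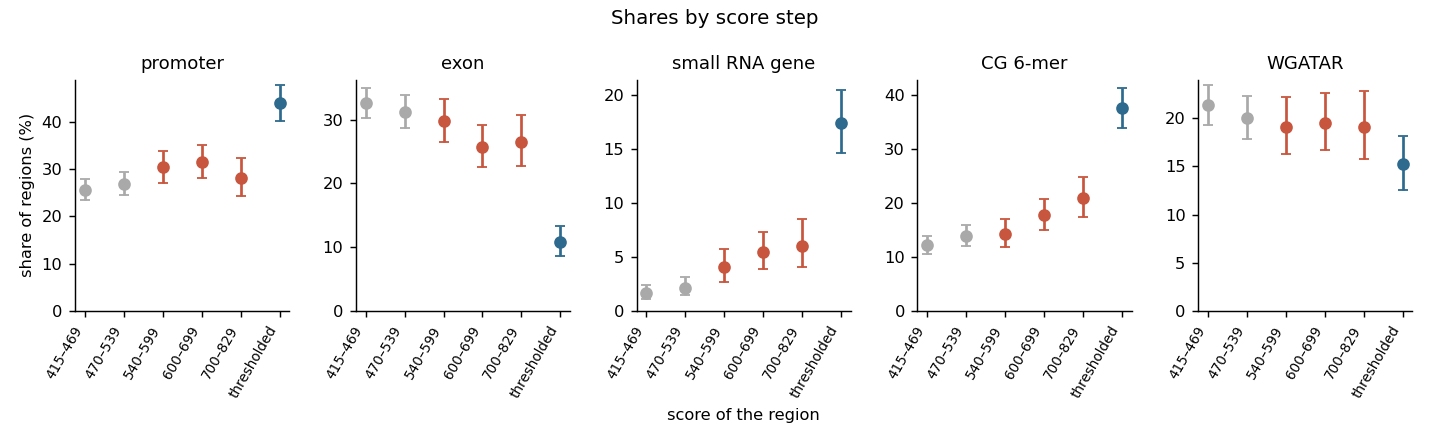
Share of regions (%) in promoters, in exons, at tRNA, snoRNA or snRNA genes, with a CG 6-mer and with WGATAR, by score step from low to high; grey points are the tier below, red points the second tier and blue points the thresholded list, with exact 95% intervals. The last difference between neighbours is the largest in each panel: small RNA genes stand at 6.04% in the top step of the second tier and at 17.4% in the thresholded list. The last point pools all scores from 830 to the cap of 1000.

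Within the second tier the location shares moved little with the score. For the 5 shares plotted, the largest difference between neighbouring steps was that between its top step and the thresholded list. The thresholded list is no narrow step, since it pools all scores from 830 to the cap of 1000. Its median signal was 82.0, against 64.9 in the top step of the second tier. Whether shares break at the bound itself was not tested. Promoters held 30.4% of members with scores from 540 to under 600, 31.5% from there to under 700 and 28.2% from there to under 830, and exons held 29.8%, 25.8% and 26.6%. Small RNA genes stood at 4.04%, 5.43% and 6.04% over the same steps, and CG 6-mers, described below, at 14.3%, 17.8% and 20.9%. The steps were described and not tested.

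Members were rich in G and C, though less so than thresholded regions. The GC content of the summit window had a median of 45.7% in second-tier regions and 48.3% in thresholded regions, with 43.7% in the tier below and 35.1% over tiles of the same length across the genome. Windows with at least 50% GC made up 29.7% of the second tier and 40.1% of the thresholded list (odds ratio 0.632, 0.525 to 0.761, Fisher's exact test, adjusted p = 1.52e-06). The tier below had 21.6% (odds ratio of the second tier 1.53, Fisher's exact test, adjusted p = 3.00e-09), and 3.71% of tiles reached 50%. The difference from the thresholded list did not pass within the lists of replicate 1 (38.4% and 41.2%, adjusted p = 0.609) or of replicate 2 (34.1% and 43.0%, adjusted p = 0.169, both Fisher's exact test).

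The GATA site WGATAR, looked for on either strand in the summit window, was present in 372 members (19.2%, 17.5 to 21.1) and in 104 thresholded regions (15.2%, 12.6 to 18.1). The odds ratio was 1.33 (1.04 to 1.70, Fisher's exact test, adjusted p = 0.0236). Both shares were below the 28.3% of all tiles that hold it and below the 28.2% and 24.8% of windows 600 bp to either side of second-tier and thresholded summits. Members have a different base composition from most tiles. Tiles weighted to the GC content of the members held the motif in 20.5% of cases, and those weighted to the thresholded regions in 18.8%. The call rests on the window and the lists. It ended with a window of 150 bp to either side (37.4% and 33.2%, Fisher's exact test, adjusted p = 0.0615), without regions at tRNA, snoRNA and snRNA genes (19.3% and 15.6%, adjusted p = 0.0597), and within replicate 1 (12.9% and 10.3%, adjusted p = 0.590) or replicate 2 (13.5% and 12.7%, adjusted p = 0.907). The tier below held the motif in 20.7% of regions, and its difference from the second tier did not pass (odds ratio 0.912, 0.787 to 1.06, Fisher's exact test, adjusted p = 0.267).

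The 4 CG-containing 6-mers, searched on either strand, marked a smaller part of the second tier than of the thresholded list. They are CGCGCA for the first, ACGCAG for the next, AGCGCG for another and ACGCGC for the last, and they overlap each other in part. They had been picked for their frequency in the thresholded regions of these data, so that a higher share there is not independent evidence. At least 1 was present within 75 bp of the summit in 335 members (17.3%, 15.7 to 19.1) and 257 thresholded regions (37.6%, 33.9 to 41.3), an odds ratio of 0.348 (Fisher's exact test, adjusted p = 1.46e-24). The tier below held them in 13.0% (odds ratio of the second tier 1.41, 1.20 to 1.66, Fisher's exact test, adjusted p = 0.000104). Of all tiles 6.76% held such a 6-mer, and of tiles weighted to the GC content of the members 12.9%. Within the second tier the share was 24.1% in promoters, 18.99% in introns, 16.5% in intergenic regions and 7.72% in exons. In thresholded regions the corresponding shares were 48.0%, 37.2%, 32.03% and 5.41%.

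**Figure D3:**
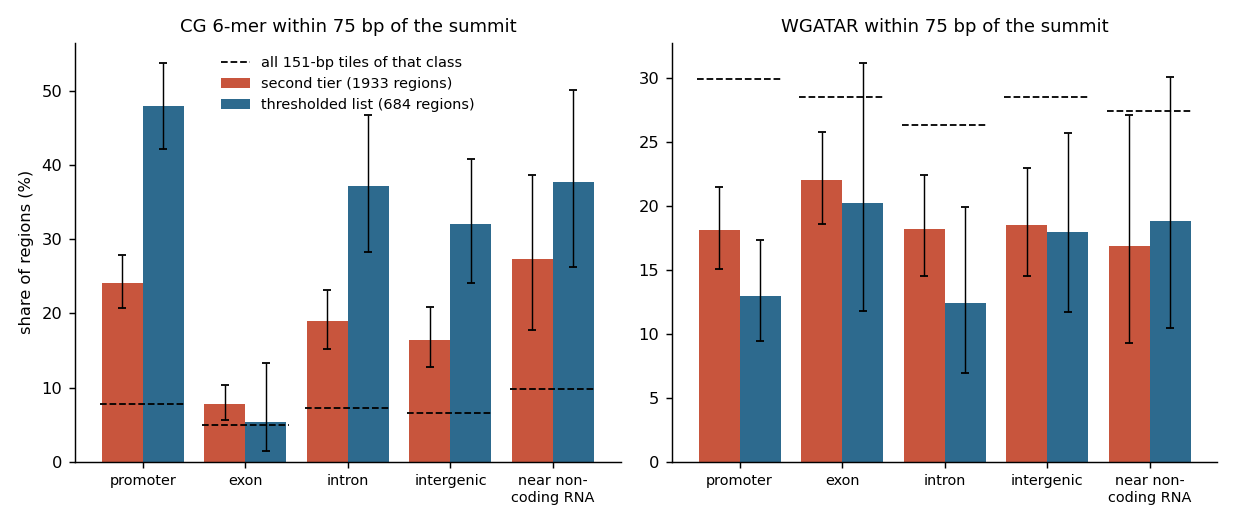
Share of regions (%) with a CG 6-mer (left) and with WGATAR (right) in the summit window by location class, for the second tier and the thresholded list, with exact 95% intervals; dashed lines give all tiles of that class and of the same length. CG 6-mers stand at 24.1% in second-tier and 48.0% in thresholded promoters, and at 7.72% and 5.41% in exons.

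The X chromosome held 20.9% of members and 22.7% of thresholded regions, against 17.7% of the sequence. The difference between the tiers did not pass (odds ratio 0.902, 0.728 to 1.12, Fisher's exact test, adjusted p = 0.386). Its sign turned when regions at tRNA, snoRNA and snRNA genes were left out, with 20.3% of second-tier and 19.3% of thresholded regions (Fisher's exact test, adjusted p = 0.631). On the autosomes, 30.5% (28.2 to 32.9) of members and 36.5% (32.4 to 40.7) of thresholded regions had their summit in the central of 3 equal stretches of the chromosome, a difference that was not tested.

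Of the 20 members with the highest signal, 8 were intergenic (17.9% in the whole tier), 6 in promoters (30.2%) and 4 in introns (20.4%). A further 1 lay in an exon (27.5% in the whole tier) and 1 near a non-coding RNA gene (3.98%). WGATAR was held by 3 of the 20 (19.2% in the whole tier). None of the 20 was in either replicate's own thresholded list. Those ranked 1, 2, 6 and 7 nevertheless had a score of 1000, the cap, in the ranked list of replicate 1. For them, absence from its thresholded list does not mean a low score there. The first, at V:16708584-16708859 in the repeat printed above, had a signal of 133 and a height of 46.6 in replicate 1, with no peak in replicate 2. The second, at II:8289349-8289624 and 5819 bp from the nearest start, that of *cct-4*, had a signal of 111 and a height of 91.1 in replicate 1, again with no peak in replicate 2. That ranked 7, at X:12277935-12278210, had a signal of 87.2, a height of 58.7 in replicate 1 and no peak in replicate 2 either. Of these 20, only the 3 regions just described had a peak in replicate 1 and none in replicate 2. Their signals in the list covering both replicates were above their heights in replicate 1. Reads of replicate 2 at these places were not examined. The member ranked 6, at III:1301453-1301728, was uneven, with a height of 81.3 in replicate 1 and 16.5 in replicate 2. Others were more even, such as the intron of *ppfr-1*, which encodes a regulatory subunit of protein phosphatase 4 (signal 91.0, heights 35.8 and 42.5), and the promoter of *nipi-3*, a kinase-like gene of epidermal innate immunity (signal 83.4, heights 38.9 and 35.7). The promoters of *Y97E10C.1* (89.9), *nduf-9* (83.0), *Y22D7AL.4* (81.5), *clec-80* (78.9) and *try-3* (77.5) were also among them. A further member lay in an intron of *clec-80*, a C-type lectin gene (78.6), and others in introns of *stim-1*, a calcium sensor of the endoplasmic reticulum (81.0), and *R04E5.7* (78.2). The remaining intergenic regions lay nearest to *nhr-277*, *H37A05.4*, *ari-1.4* and *tcc-1*.

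Nearly all members had some peak in each replicate, but few had a high score there. Over the 1874 and 1833 members with a peak there, the median height stood at percentile 94.3 of the ranked list of replicate 1 and at percentile 92.6 of that of replicate 2, and for thresholded regions at 99.1 and 99.01. A peak of any score in the ranked lists of both replicates overlapped 1777 members (91.9%, 90.6 to 93.1) and 672 thresholded regions (98.2%), with 85.03% in the tier below. The ranked lists cover 15.98% of the genome in replicate 1 and 14.1% in replicate 2, so that an overlap at any score asks little. A peak with a score of 540 or more in both replicates overlapped 2 members (0.103%) and 180 thresholded regions (26.3%). The thresholded lists of the replicates held 5 members in replicate 1 and 9 in replicate 2, and 0 in both, for which the exact interval reaches 0.191%. For the thresholded list the share in both was 18.3%. No test is given, since replicate lists and scores come from the same reads. The 5 members in the list of replicate 1 were the promoters of *Y22D7AL.6*, *nhr-88*, *rps-20* and *arf-1* and an intron of *F14F7.5*. Those in the list of replicate 2 included the promoters of *K05F1.6*, *C54E10.6* and *rps-15*, introns of *jnk-1* and, at another place than the region above, *ppfr-1*, and exons of *icl-1* and *Y49F6B.9*. The 3 members with no peak in either replicate's ranked list include the region at IV:13361720-13361995 (signal 54.1).

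Peak height in the replicates had a median of 32.03 in replicate 1 and 28.2 in replicate 2 for members, and of 43.8 and 41.4 for thresholded regions. Among the 1777 members with a peak in both, heights were within 2-fold of each other in 89.3%, and among 672 thresholded regions in 92.6%. The heights were related inversely across members (Spearman's rho −0.43) and positively across thresholded regions (rho 0.35). These are correlations across regions of the same pair of libraries and are given as a description. Members were chosen by a score from the same reads, and the part of that choice in the relation was not tested. In the other series-level ranked list, a peak of 540 or more overlapped 47.7% of members and 93.6% of thresholded regions, and 79 members overlapped the authors' conservative list.

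**Figure D4:**
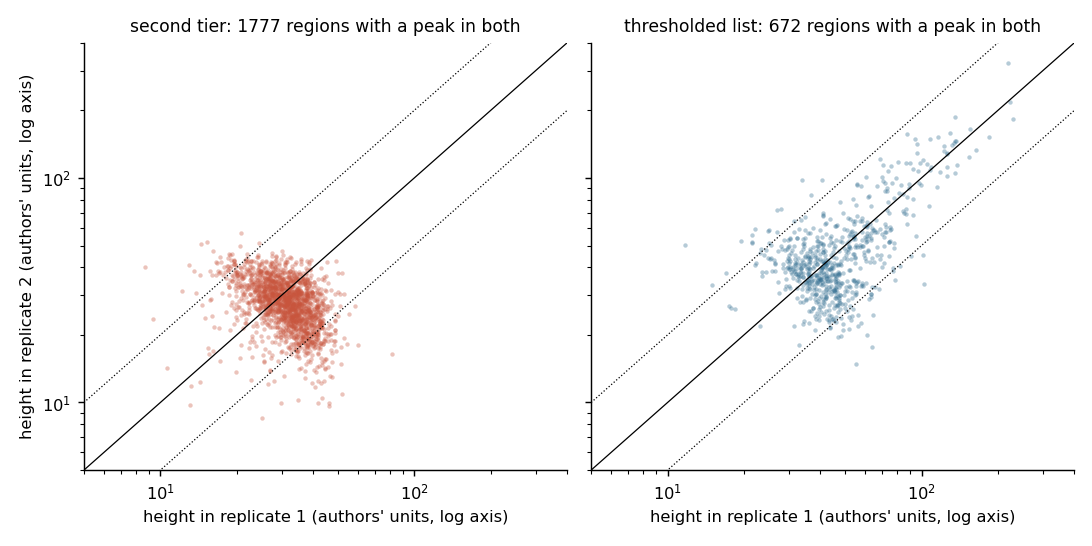
Peak height in replicate 2 against replicate 1 (authors' units, logarithmic axes) for second-tier regions (left) and thresholded regions (right) with a peak in both ranked lists; the solid line marks equal heights and dotted lines a 2-fold difference. Members form a single cloud around medians of 32.03 and 28.2, and thresholded regions extend along the line of equal heights to above 200.

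Target genes, those with a summit in their promoter window, numbered 644 for the second tier, 3.22% of 19973 protein-coding genes, and 374 (1.87%) for the thresholded list. In all, 19 genes were targets of both, 2.95% of second-tier and 5.08% of thresholded targets. Among them were *wwp-1*, a ubiquitin ligase gene (signal 66.2 in the second tier and 92.6 in the thresholded list), *pck-2* for phosphoenolpyruvate carboxykinase (2 second-tier regions of 65.5 and 59.0, and 115.1 in the thresholded list), *let-70*, a ubiquitin-conjugating enzyme gene (61.6 and 110.1), *ZK112.4* (69.8 and 74.3), *T02E1.2* (61.4 and 132), and *egl-30* for a G protein alpha subunit (60.7 in the second tier, with thresholded regions of 90.5 and 118). The tier below had 820 target genes. The counts below are read against 3.22% and 1.87%. They are descriptions without a test, and the lists were drawn up with results of these data known. Most of them moved with the definition of a target: promoters of 500 bp before and 100 bp past the start gave 390 second-tier and 254 thresholded targets, and the nearest gene start gave 1701 and 632.

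Cytosolic ribosomal protein genes had fewer second-tier than thresholded targets. Of 78 cytosolic ribosomal protein genes, 4 (5.13%) were second-tier targets and 14 (17.9%) thresholded targets, and none was in both. With the narrower promoters the counts were 2 and 12, and by nearest start 9 and 12. In the tier below 8 of the 78 (10.3%) were targets, more than in the second tier. The second-tier targets were *rps-15* (signal 66.4), *rps-20* (66.1), *rpl-27A* (65.8) and *rps-26* (35.7), and exons of *rpl-13* and *rpl-37.2* also held a member. At *rps-15* the height was 15.2 in replicate 1 and 52.0 in replicate 2. At *rps-20* it was 60.3 in replicate 1, and replicate 2 had no peak. The summits at *rpl-27A* and *rps-26* also lay at snoRNA genes. Translation factors and aminoacyl-tRNA synthetases had 3 second-tier and 8 thresholded targets of 64, among them in the second tier *eif-2gamma* (64.9) and *iff-1* (63.3). Splicing genes had 1 (*rsp-6*) and 4 of 28. Mitochondrial ribosomal protein genes had 3 of 71 second-tier targets, *mrps-18C* (69.2), *mrpl-24* (59.3) and *mrpl-15* (58.1), and 0 thresholded ones. In the tier below, translation factors and synthetases had 0 targets, splicing genes 4 and mitochondrial ribosomal protein genes 1.

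Histone genes were second-tier targets in 9 of 72 cases (12.5%) and thresholded targets in 3 (4.17%). The 9 genes shared 6 regions, since many histone genes stand in divergent pairs, such as *his-3* and *his-4* (signal 68.8, heights 42.8 in replicate 1 and 15.8 in replicate 2) and *his-35* and *his-41* (68.1, heights 38.2 and 30.01). With the narrower promoters the counts were 3 and 2, and by nearest start 6 and 3. The tier below had 5 histone targets (6.94%). Histone genes have near-identical copies. None of the 584 promoter windows of the second tier had a second exact copy in the genome, and near copies were not counted. Heat shock protein genes had 3 of 24 second-tier targets, *hsp-110* (68.1), *hsp-16.20* (63.0, with the summit also at an snRNA gene) and *hsp-16.11* (55.8), and 4 thresholded ones. The other chaperones had 3 and 4 of 43, with *cct-7* (64.0), *pfd-1* (62.4) and *dnj-29* (54.3) in the second tier. Vesicle sorting genes had 5 and 5 of 60, among them in the second tier *vps-51* (67.8), *vps-13D* (66.7), *rab-14* (66.0) and *vps-24* (61.4). Nuclear pore and transport genes had 2 and 3 of 32, with *npp-6* (76.3) and *imb-3* (50.4). Proteasome subunits had 2 and 0 of 33, of which *rpn-3* shares its region with *hsp-110*. RNA polymerase and TAF genes had 1 (*taf-12*) and 0 of 36. In the tier below the heat shock, other chaperone, vesicle sorting and nuclear pore lists had 0, 2, 2 and 0 targets. Proteasome subunits had 5 there, and RNA polymerase and TAF genes 1.

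**Figure D5:**
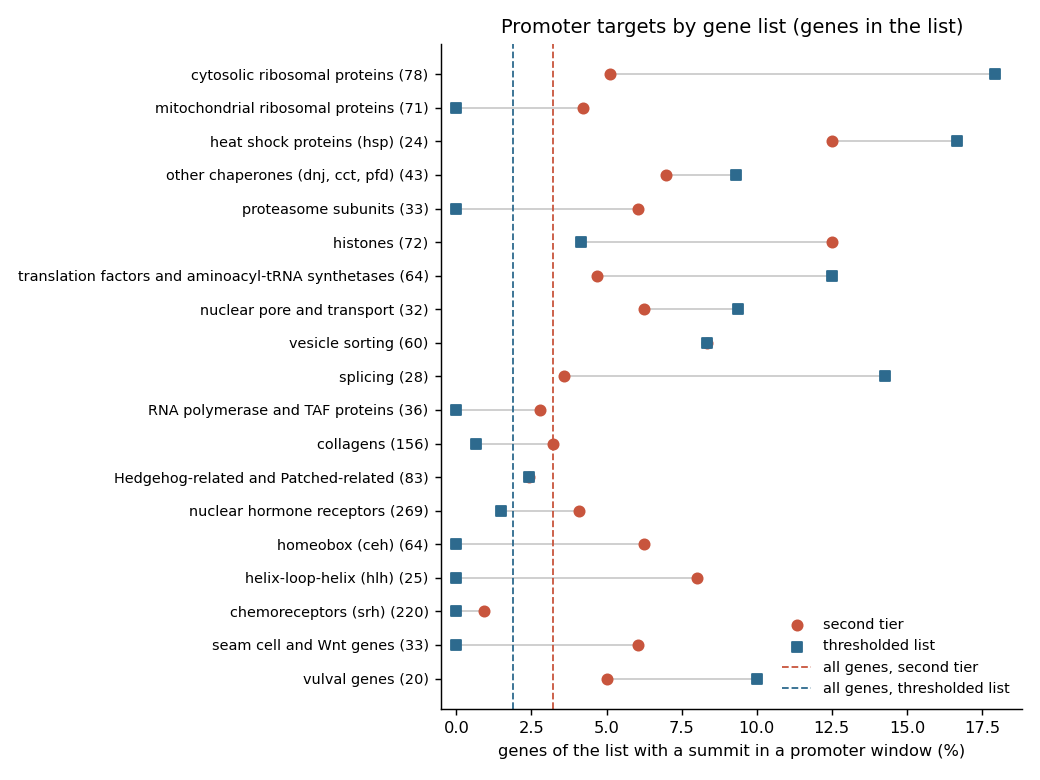
Share of the genes of each list (%) with a summit in a promoter window, for second-tier regions (circles) and thresholded regions (squares), with the number of genes in brackets; lists of under 20 genes are not drawn, squares cover circles of equal value, and dashed lines give all protein-coding genes, 3.22% and 1.87%. Cytosolic ribosomal protein genes stand at 5.13% in the second tier and 17.9% in the thresholded list, histone genes at 12.5% and 4.17%.

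Genes tied to the known roles of EGL-18 gave few targets in number. Of 33 seam cell and Wnt genes, 2 were second-tier targets (6.06%) and 0 thresholded ones, and by nearest start 7 and 0. They were *cfz-2*, which encodes a Frizzled receptor (V:3445557-3445832, signal 64.0, heights 27.2 and 34.8 in replicates 1 and 2), and *lin-18*, which encodes a Ryk-type Wnt receptor (X:3958036-3958311, signal 56.0, heights 20.9 and 31.5). Exons of *nhr-23*, a molting receptor gene (65.5), *lin-17*, another Frizzled gene (55.1), and *cfz-2* itself (44.0) held members as well. The 11 GATA factor genes had 0 targets in either tier, and by nearest start 1 in each. A member did lie in an intron of *egl-18*, at IV:1904711-1904986, with a signal of 62.9, a score of 689, heights of 32.3 and 27.7 in replicates 1 and 2 and a CG 6-mer but no WGATAR in its window. It was the only member within 5000 bp of *egl-18* or *elt-6*. Of 16 heterochronic genes, *lin-14* (X:11465343-11465618, signal 72.1, heights 40.8 and 23.7) and *lin-66* (57.8, heights 37.3 and 23.5) were targets besides the member at *lin-4*. The thresholded list had 1 heterochronic target. The summit at *lin-4* also lay in an intron of *F59G1.4* and at the non-coding RNA genes *F59G1.10* and *F59G1.12*. The *lin-14* mRNA is a known target of the *lin-4* microRNA. Vulval genes had 1 second-tier target of 20, *lin-15B* (54.7), with a member in an exon of the Notch receptor gene *lin-12* (72.5), and 2 thresholded targets. Name classes were counted apart from these roles. Among the 98 with at least 20 genes, *lin* had the largest second-tier share, 8 of 47 (17.02%), and 34 classes had no target. The *his* and *hsp* classes came next with 12.5% each. The *lin* class was singled out after its value was seen. Its targets include *lin-14*, *lin-66*, *lin-18* and *lin-15B*, which are counted above, so that it is no separate result.

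Of 156 collagen genes, the main structural genes of the cuticle, 5 were second-tier targets (3.21%), led by *col-174* (66.8), *col-156* (63.8), *col-52* (63.0) and *col-87* (59.5), and 1 was a thresholded target. The regions at *col-156* and *col-52* had no peak in replicate 2. Exons of 10 collagen genes (6.41%) held a member, led by *col-135* (74.8) and *col-103* (70.7), against 1 (0.641%) for the thresholded list. Over all protein-coding genes these exon shares were 2.61% and 0.386%. In the tier below, exons of 15 collagen genes (9.62%) held a summit. Nuclear hormone receptor genes had 11 second-tier and 4 thresholded targets of 269. The strongest was *nhr-88*, with regions of 71.1 (no peak in replicate 2) and 64.5, then *nhr-37* (63.2) and *nhr-91* (62.2). Homeobox genes of the *ceh* class had 4 and 0 of 64, namely *ceh-51* (63.1), *ceh-18* (59.2), *ceh-45* (58.8) and *ceh-39* (55.3), and *hlh* genes had 2 and 0 of 25, *hlh-30* (54.7) and *hlh-11* (45.4). Hedgehog-related and Patched-related genes had 2 and 2 of 83, *ptr-17* (58.2) and *grl-8* (57.7) in the second tier. The chemoreceptor class *srh*, whose members are expressed in sensory neurons, had 2 and 0 of 220, below the share of all genes. The actin genes *act-1* (71.9) and *act-3* (60.7) and the yolk protein gene *vit-2* (73.6) were second-tier targets too.

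Few members lay near a peak with a score of 830 or more. Within 1000 bp of a thresholded region lay 53 members (2.74%), and such surroundings make up 1.498% of genome bases. Members were counted from the edges of their intervals and the genome by single bases, so that these shares are not like measures. The rule had also dropped regions that overlapped such a peak. Some peaks with a score of 830 or more are lacking from the thresholded list, and 12 members lay within 1000 bp of 1 of these, among them the regions ranked 6 and 13 by signal. Leaving these 12 out changed no call among the promoter, exon, intron, intergenic, small RNA gene, GATA site, GC, CG 6-mer and X chromosome shares.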

How the data were processed

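The deposited files are peak lists on ce11, per the submitters' labels, for the series and for each of the 2 replicates. In the sources used here, the aligner and the peak caller are not given. The score deposited with each peak was −125 times log2 of the IDR, capped at 1000, within 1 unit for 99.99% of the peaks of the ranked list, as checked against the IDR in the same file. The deposited signal is the authors' peak height on a scale that is not stated, and the deposited q-value is a −log10 value. Depth is unknown, and which inputs gave the IDR of the series-level list is not stated.

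Locations came from the Ensembl release 115 annotation of WBcel235, with RefSeq symbols for 46881 of 46890 genes. Each region took the summit of its peak of highest signal, and GC and motifs were read in the bases up to 75 bp to either side. A summit was classed as in a promoter, exonic, intronic, within 150 bp of a non-coding RNA gene or intergenic, in that order. Shares of regions were compared by two-sided Fisher's exact tests with Benjamini-Hochberg adjustment over 13 shares at 0.05, once against the thresholded list and once against the tier below. The code was tested on simulated data. The members and gene lists were chosen with earlier results of these data known. Regions named are the 20 of highest signal, the 3 highest of each location and RNA gene class, those at the score bounds and those in a replicate's thresholded list. Genes named are all targets in the ribosomal, GATA factor, seam cell and Wnt and heterochronic lists, up to 4 by signal in each other list, and up to 10 shared targets. Alternatives changed the merging, the score range, the thresholded list, the promoter window, the search windows and the overlap rule, or used the lists of 1 replicate. Tables were handled with pandas 2.3.3 and numpy 2.4.6 in Python 3.11.15, tests run with scipy 1.17.1 and plots drawn with matplotlib 3.10.9.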

Additional observations from a re-analysis of the deposited data

How the results depend on the processing

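Of 79 alternative values, those of single gene lists apart, 58 were classed as the same as the main result. Differences had to keep their direction and their side of the threshold, and counts to lie within 1.5 times the main value. Presence in both replicates had to lie within the exact interval of the main share. Differences are second tier minus thresholded list in percentage points. With scores from 600 to under 830 there were 1215 members, and the lists of 1 replicate alone gave 208 to 263. Leaving out each replicate in turn gave differences of -13.1 to -3.48 for promoters, -3.26 to 0.599 for introns, -0.0862 to 0.540 for intergenic regions, -14.6 to -5.84 for small RNA genes, 0.742 to 2.62 for WGATAR and -8.85 to -2.83 for windows of at least 50% GC. Exons (11.5 to 13.4) and CG 6-mers (-22.0 to -15.3) stayed past the threshold in both. For the 6-mers this is not independent evidence, since they had been picked for their frequency in the thresholded regions of these data. The intron difference was 3.49 with unmerged peaks and 2.44 against the conservative list, and neither passed. The WGATAR difference was 3.72 without tRNA, snoRNA and snRNA genes and 4.22 within 150 bp, and neither passed. The X chromosome difference turned to 0.980 without those RNA genes. The cause of these shifts was not tested, although the lists of 1 replicate hold far fewer regions. Presence in both replicates was 88.0% when the summit had to lie inside the replicate's peak and also under mutual overlap. Targets numbered 1701 by nearest gene start and 390 with the window of 500 bp upstream and 100 bp downstream. No paired analysis was possible because the comparisons are between classes of regions in lists made from both replicates and not between groups of samples.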
